A study of Mus musculus with 12 samples.

Results

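The contractile apparatus of smooth muscle was examined on the microarrays through 10 genes, *Acta2*, *Tagln*, *Cnn1*, *Cnn2*, *Tpm1*, *Tpm2*, *Cald1*, *Myl9*, *Vcl* and *Csrp1*, and every probe annotated to one of them was taken. Of these genes, 6 had a probe, with 14 probes among the 20794 of the array, and all 14 had a value on each of 12 arrays. *Acta2*, *Tagln*, *Cnn1* and *Myl9*, which include the most widely used markers of the lineage, were not analysed here. Yolk sac RNA of 6 mouse embryos that were *Prdm6* del/del (named *Prdm6* -/- in the labels), taken at 10.5 days of development, was hybridized against 1 pool of RNA from 6 wild type (*Prdm6* +/+) yolk sacs on 2-colour cDNA arrays. The del allele was produced in the germ line with a Cre deleter strain and lacks an exon that had been flanked by loxP sites, so all cells of the embryo and of the yolk sac carry it, and the yolk sac was measured whole. Embryos of this genotype begin to die around this stage, and *Prdm6* itself was not analysed here. Cy5 marked the del/del RNA on 5 arrays (replicates 1, 3, 5, 7 and 11) and Cy3 marked it on 5 others (replicates 2, 4, 6, 10 and 12), while replicates 8 and 9 are labelled with 1 dye in both channels (Cy3 and Cy5, respectively).

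In smooth muscle, actin filaments are pulled along myosin filaments when the regulatory light chain of myosin is phosphorylated. Tropomyosin lies along the actin filament, and caldesmon and the calponins bind actin and restrain its interaction with myosin. Vinculin ties the filaments to the membrane at adhesion sites. Serum response factor (SRF) and its cofactor myocardin switch on many of these genes through the CArG box, an A/T-rich site between a pair of C and a pair of G, and Prdm6 has been described as a repressor of smooth muscle genes, which is why their level in its absence was of interest. The mesoderm layer of the yolk sac carries the vessels around which such cells gather, and several of the genes, *Tpm1*, *Tpm2*, *Cald1*, *Vcl* and *Cnn2* among them, are also used by cells that are not muscle.

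The CArG box was searched for in the RefSeq promoter sequences of build GRCm38.p6, which run from 250 bases before to 50 after a gene's start. These hold 9 of the 10 genes, without *Tagln*. A match was present for 3 of the 9, *Cnn2*, *Vcl* and *Myl9*, against 1.81% of all 27025 genes in the table (1.63% of 32851 promoters). The pattern searched for, though not every single box, has the same form on both strands, so 1 search covered both. *Tpm1*, *Tpm2*, *Cald1*, *Csrp1*, *Cnn1* and *Acta2* had no exact match within these letters. The stretches around the matches are shown because they mark which of the measured genes carry the site next to the start, with the box in capitals. They lie on the plus strand at chr10:79988519-79988578 (*Cnn2*, box beginning at -56 from the start), chr14:20929148-20929205 (*Vcl*, -227) and chr2:156775278-156775337 (*Myl9*, -161).
Cnn2: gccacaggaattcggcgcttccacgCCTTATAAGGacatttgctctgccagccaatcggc
Vcl: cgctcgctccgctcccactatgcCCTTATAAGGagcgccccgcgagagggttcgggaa
Myl9: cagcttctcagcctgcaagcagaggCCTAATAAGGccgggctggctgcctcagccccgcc
The box is identical in *Cnn2* and *Vcl*, the only measured genes of the set in which it was found.

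The contractile genes measured here neither rose nor fell by the test used. The threshold combined a limma p under 0.05 after Benjamini-Hochberg adjustment and a mean beyond 1.3-fold. It was passed by 0 of the 14 probes, and by 1.07% of all 20516 probes tested (0.166% higher and 0.907% lower). Their mean log2 ratios of del/del over wild type lay between -0.16 and 0.32, with a median of 0.07, against -0.00 over all probes tested. With the p left unadjusted and the fold kept, 0 of the 14 probes passed, against 2.7% of all probes. Without the fold, 4 of 14 (28.6%) had an unadjusted p under 0.05, both probes of *Tpm1*, 1 of *Csrp1* and 1 of *Cnn2*, where 11% of all probes did. All 4 were higher in del/del, where 4.64% of all probes were higher and 6.41% lower at that p. The 95% interval of the mean lay within 1.3-fold in both directions for 7 of 14 probes, against 61.4% of all probes, so for the other 7 a change of that size was not excluded. Each yolk sac was hybridized on 2 arrays, and which ones is not given in the labels, so arrays entered as if independent, and the intervals and p-values do not allow for arrays that share a yolk sac. With arrays of consecutive number averaged as presumed pairs, 8 of 14 intervals lay within 1.3-fold. In whole yolk sacs, fewer cells of a type and less RNA per cell cannot be told apart.

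**Figure D1:**
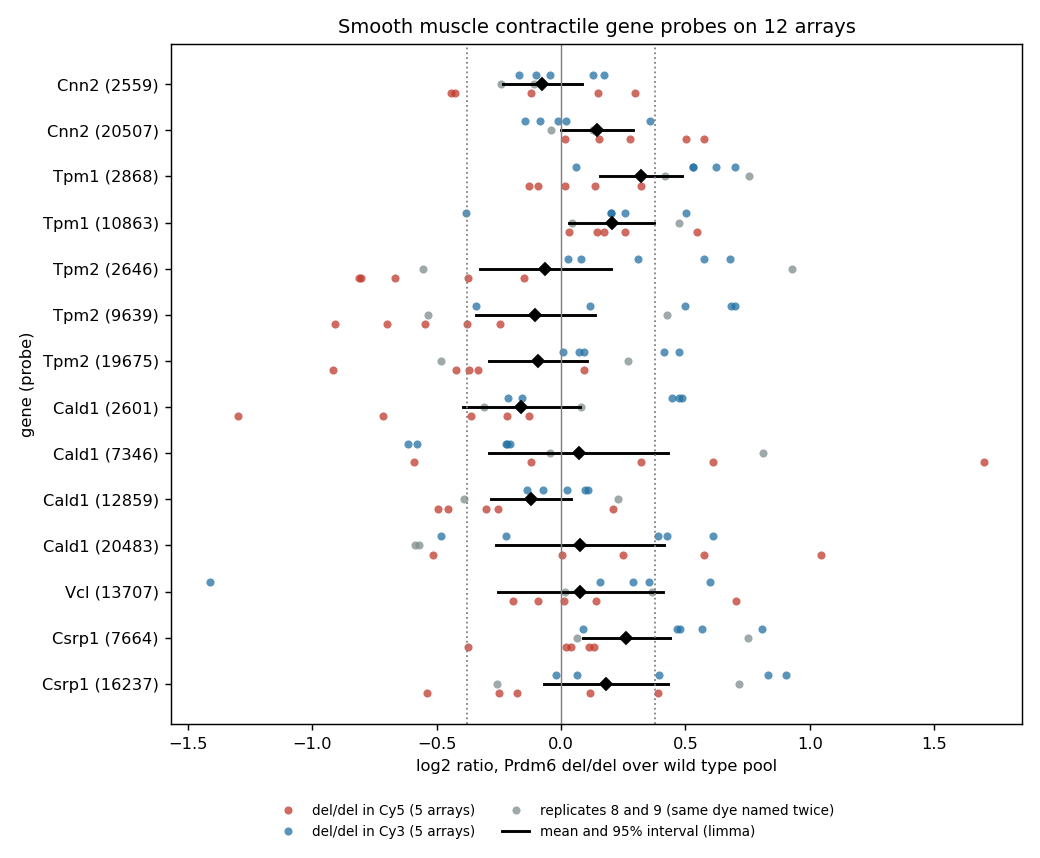
Log2 ratio of *Prdm6* del/del over the wild type pool (x axis) for each of the 14 probes (y axis), with 1 point per array coloured by dye orientation, the mean as a diamond and its 95% interval from limma as a bar; dotted lines mark 1.3-fold. The means lie between -0.16 and 0.32, and the 3 *Tpm2* probes, *Cald1* probes 2601 and 12859 and both *Csrp1* probes have Cy5 means below 0 and Cy3 means above it. How many of all probes split this way was not counted.

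*Tpm1* had the highest mean of the 6 genes. It codes for the alpha-tropomyosin of smooth and striated muscle and, by splicing, of many other cells. Its probe 2868 had log2 ratios of -0.09, 0.02, -0.13, 0.32 and 0.14 on replicates 1, 3, 5, 7 and 11, with del/del in Cy5. On replicates 2, 4, 6, 10 and 12, with del/del in Cy3, it had 0.53, 0.06, 0.53, 0.70 and 0.62, and on replicates 8 and 9 it had 0.75 and 0.42. The ratios were thus higher where del/del carried Cy3, and the ranges of both orientations overlapped. The mean was 0.32 (SD 0.31, n = 12 arrays, above 0 on 10 of 12), or 1.25-fold (95% interval 1.12 to 1.40), with an adjusted p of 0.0722 from limma, the smallest of the 14 probes. With del/del taken as Cy3 on replicate 8 and Cy5 on replicate 9 the adjusted p was 0.0486 at the same mean, still under 1.3-fold, and without replicate 4 it was 0.0215 at a mean of 0.37. The second probe, 10863, had a mean of 0.20 (SD 0.25, n = 12, above 0 on 11 of 12, limma adjusted p = 0.342), with a lowest array of -0.38 (replicate 12), a median of 0.20 and a highest of 0.55. It had means of 0.23 with del/del in Cy5 and 0.16 in Cy3, a difference of 0.08 (limma adjusted p = 0.795 for the dye term), against -0.44 on probe 2868 (0.0969). The probes differed by 0.12 (SD 0.45, probe 2868 higher on 6 of 12 arrays), less than the spread between arrays.

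With both *Tpm1* probes averaged on each array, the ratio was above 0 on 12 of 12 arrays. The averages were 0.03, 0.02, 0.21, 0.25 and 0.20 with del/del in Cy5, 0.52, 0.13, 0.36, 0.48 and 0.12 with del/del in Cy3, and 0.40 and 0.45 on replicates 8 and 9. Every array lay on the same side, although 2 of the Cy5 arrays were close to 0. Arrays that share a yolk sac are not independent, and the share of all genes with every array on 1 side was not counted. The mean was 0.26 (SD 0.17, n = 12), 95% interval 0.15 to 0.38, with an adjusted p of 0.0258 from limma over 8957 genes, where 1.85% of genes had an adjusted p under 0.05 and 0.458% were higher with it. The change stayed under 1.3-fold, so by the threshold used here *Tpm1* was not called. The adjusted p was over 0.05 without any 1 of replicates 2, 5, 6, 7, 8, 9, 10 and 11 (0.021 to 0.0767 over the 12 arrays left out in turn), 0.117 without replicates 8 and 9 together, and 0.166 with arrays of consecutive number averaged as presumed dye-swap pairs of 1 yolk sac. Dropping the dye term gave 0.0515, and the robust and trend options gave 0.226. The mean was above 0 in each of these fits. It was -0.07 (limma adjusted p = 0.358) with the arrays turned by their dyes, which measures the dye difference rather than del/del against wild type.

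*Tpm2*, the beta-tropomyosin gene, had the widest gaps between dye orientations among the 14 probes, on 2 of its 3 probes. Probe 2646 had log2 ratios of -0.15, -0.80, -0.81, -0.67 and -0.37 on the 5 arrays with del/del in Cy5. On the 5 with del/del in Cy3 it had 0.08, 0.03, 0.68, 0.57 and 0.31. Every Cy5 array was below 0 and every Cy3 array above it, with no overlap. All Cy5 arrays lay below all Cy3 arrays for this 1 of the 14 probes, and for 6.63% of all probes tested. On the arrays with 1 dye named, replicate 8 (Cy3) had 0.93 and replicate 9 (Cy5) had -0.55, each on the side of the dye named for it. The orientations differed by -0.90 (Cy5 minus Cy3, limma adjusted p = 0.0473 for the dye term). Probe 9639 likewise had means of -0.56 (SD 0.26, n = 5) in Cy5 and 0.33 (SD 0.44, n = 5) in Cy3, a difference of -0.89 (limma adjusted p = 0.0363), and probe 19675 had -0.39 and 0.21, a difference of -0.60 that did not pass (limma adjusted p = 0.0657). The dye term passed for 2 of 14 probes (14.3%), both of *Tpm2*, where it passed for 12.2% of all probes. It passed for 0 of the 14 probes without any 1 of replicates 1, 3, 5, 6, 7, 10, 11 and 12, for 1 without replicate 2 and for 5 without replicate 4. In the same fits it passed for 2.64% to 10% of all probes without 1 of the former replicates, for 7.98% without replicate 2 and for 13% without replicate 4. Over all 12 arrays the means of the 3 probes were -0.06, -0.10 and -0.09 (SD 0.60, 0.56 and 0.42), with limma adjusted p = 0.879, 0.770 and 0.753. The probes thus gave like means, within 0.04 of one another, and the ratios of each spread over more than 1 log2 unit. The 95% interval of probe 19675, the narrowest of the 3, was -0.29 to 0.11.

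**Figure D2:**
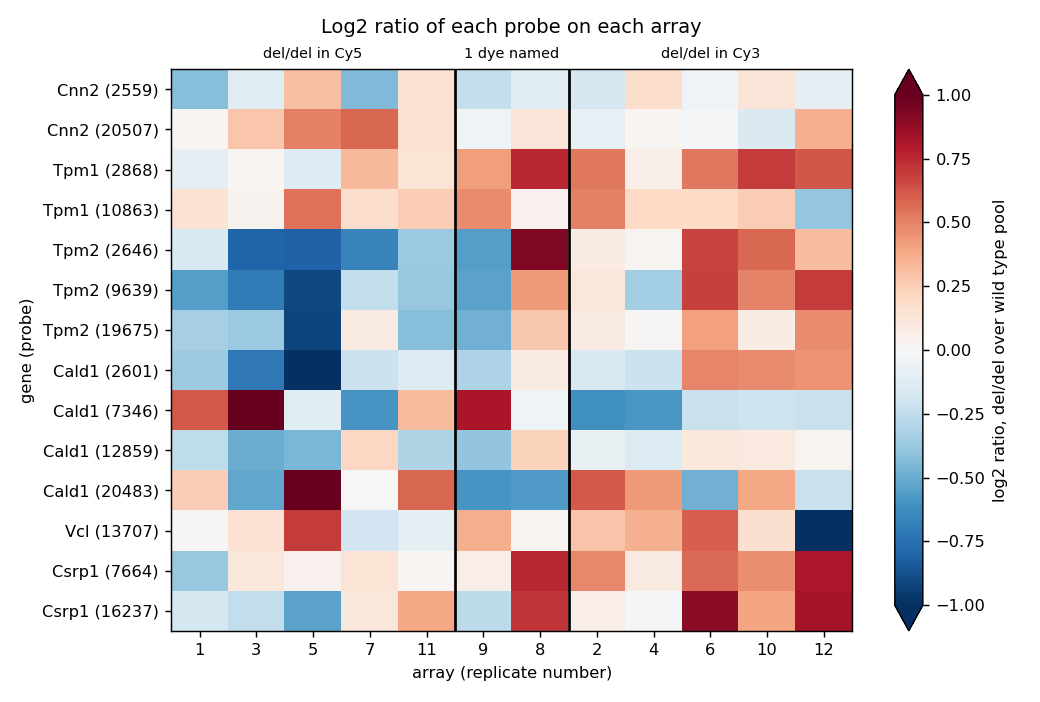
Log2 ratio of del/del over the wild type pool for each probe (rows) on each array (columns, replicate number), ordered by the dye of the del/del channel, with colours cut at -1 and 1. The 3 *Tpm2* probes are mostly blue where del/del carried Cy5 and red where it carried Cy3, and replicate 9 resembles the former and replicate 8 the latter.

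Caldesmon, the product of *Cald1*, was measured by 4 probes with means on both sides of 0. Probe 2601 had a mean log2 ratio of -0.16 (SD 0.52, n = 12, below 0 on 8 of 12, limma adjusted p = 0.638), from -1.30 on replicate 5 to 0.49, with a median of -0.19. Probe 12859 had -0.12 (SD 0.26, below 0 on 7 of 12, limma adjusted p = 0.590). These are the means nearest to a lower level in the set, and neither exceeded the spread between arrays. Probe 7346 had a mean of 0.07 with the largest spread of all 14 probes (SD 0.69), with 1.70 on replicate 3 against a median of -0.16. Without replicate 3 its mean was -0.06. Probe 20483 had 0.08 (SD 0.55), from -0.59 to 1.05 on replicate 5, and -0.02 without that array. By dye, probe 2601 had -0.54 (SD 0.48) in Cy5 and 0.21 (SD 0.36) in Cy3, while probe 7346 ran the other way with 0.38 (SD 0.87) and -0.37 (SD 0.21). Neither difference passed in the dye term (limma adjusted p = 0.0574 and 0.175). Averaged over the 4 probes, *Cald1* had a log2 ratio of -0.03 (SD 0.11, n = 12, 95% interval -0.14 to 0.07), the narrowest interval of the 6 genes and one that lies within 1.3-fold. The average has a smaller SD than any of its probes, of which 2601 and 7346 ran in opposite directions by dye. By single probe, the intervals of 2601 (-0.40 to 0.08), 7346 (-0.29 to 0.43) and 20483 (-0.26 to 0.41) reached past 1.3-fold. That of 12859 (-0.28 to 0.04) did not.

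The calponin gene *Cnn2*, which is expressed in smooth muscle and in other motile cells, had a CArG box next to its start. Probe 20507 had a mean log2 ratio of 0.15 (SD 0.23, n = 12, above 0 on 8 of 12, limma adjusted p = 0.447), with a lowest array of -0.15, a median of 0.07 and a highest of 0.58. Probe 2559 had -0.08 (SD 0.23, below 0 on 8 of 12, limma adjusted p = 0.751), from -0.44 to 0.30 with a median of -0.10. The probes lay on opposite sides of 0 and differed by -0.22 (SD 0.34, probe 2559 lower on 10 of 12 arrays). Both 95% intervals, 0.00 to 0.29 and -0.24 to 0.09, lay within 1.3-fold. The average of both probes was 0.04 (SD 0.16, 95% interval -0.08 to 0.16, limma adjusted p = 0.831).

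*Vcl*, vinculin, the other measured gene with a CArG box, had 1 probe (13707). Its mean log2 ratio was 0.08 (SD 0.54, n = 12, above 0 on 9 of 12, limma adjusted p = 0.882). The lowest array was replicate 12 with -1.41, the median was 0.15 and the highest was replicate 5 with 0.70. Without replicate 12 the mean was 0.22 (limma adjusted p = 0.362). The interval over all arrays, -0.25 to 0.41, reached past 1.3-fold on the higher side, and was wider than those of the other genes with their probes averaged. The ratios with del/del in Cy5 and in Cy3 averaged 0.11 (SD 0.35) and -0.00 (SD 0.80).

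*Csrp1*, a LIM domain protein that binds the actin crosslinker alpha-actinin and is found in smooth muscle, had the second highest mean. Probe 7664 had log2 ratios of -0.38, 0.11, 0.04, 0.13 and 0.02 with del/del in Cy5. It had 0.48, 0.09, 0.57, 0.47 and 0.81 with del/del in Cy3, and 0.75 and 0.07 on replicates 8 and 9. The Cy5 arrays were thus near or below 0 and the Cy3 arrays above it, overlapping only at replicates 3, 7 and 4. The mean was 0.26 (SD 0.35, n = 12, above 0 on 11 of 12), or 1.20-fold (95% interval 1.06 to 1.36), with an adjusted p of 0.198 from limma. Probe 16237 had 0.18 (SD 0.47, above 0 on 7 of 12, limma adjusted p = 0.610), with means of -0.09 in Cy5 and 0.43 in Cy3. Both probes therefore had a mean near 0 in one orientation and above 0.4 in the other, and the dye term did not pass for either (limma adjusted p = 0.0828 and 0.173). Averaged over its probes *Csrp1* had 0.22 (SD 0.39, 95% interval 0.03 to 0.41, limma adjusted p = 0.304).

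**Figure D3:**
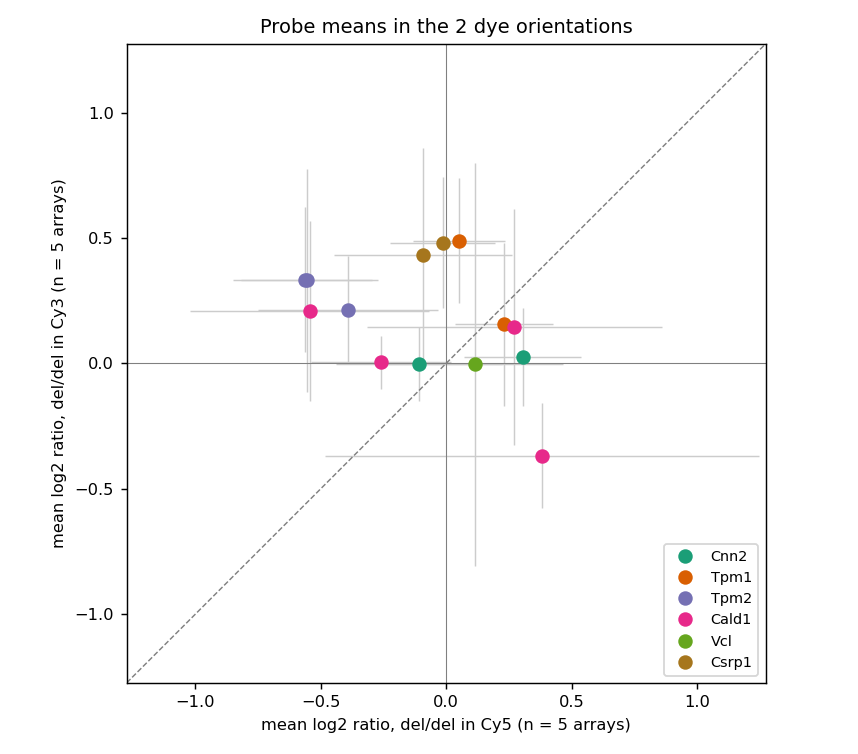
Mean log2 ratio of each probe with del/del in Cy5 (x axis, 5 arrays) against the mean over the 5 with del/del in Cy3 (y axis), coloured by gene, with SD bars in grey and equality as a dashed line. Of 14 probes, 9 lie above the line, and the share of all probes above it was not counted. *Tpm2* probes 2646 and 9639 lie farthest from it. *Tpm1* probe 2868 and both *Csrp1* probes have a mean near 0 in Cy5 and above 0.4 in Cy3.

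Across arrays, the number of the 14 probes above 0 was 5, 6, 6, 8 and 8 on the Cy5 arrays (replicates 1, 3, 5, 7 and 11) and 9, 9, 10, 12 and 9 on the Cy3 arrays (replicates 2, 4, 6, 10 and 12). Replicate 8 had 11 and replicate 9 had 5. Every Cy3 array thus had more probes above 0 than any Cy5 array. The median over the 14 probes ran from -0.19 to 0.08 on the Cy5 arrays and from 0.02 to 0.45 on the Cy3 arrays. The median of all probes split the same way, from -0.057 to -0.01 on the Cy5 arrays and from 0.005 to 0.045 on the Cy3 arrays. A split by orientation is thus not particular to the contractile genes, and the share of all probes above 0 was not counted by array. Arrays of opposite orientation correlated over all probes with a median Pearson's r of -0.12 and arrays of the same orientation with 0.12.

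Other genes of contraction did not pass. Of 29 further genes of the contractile apparatus and of smooth muscle differentiation, 22 had a probe, and 0 rose or fell, with 37 probes between -0.38 and 0.29 and a median log2 ratio of 0.03. An unadjusted limma p under 0.05 was reached by 7 of these genes, all higher, and by 0 of them together with the fold. By probe, 8 of 37 reached it, against 11% of all probes (4.64% higher). *Pdlim7*, a PDZ and LIM protein of the actin cytoskeleton, had the smallest adjusted p, with a log2 ratio of 0.21 (SD 0.20, n = 12, above 0 on 12 of 12, limma adjusted p = 0.212) and 0.21 by a further probe. *Actb*, cytoplasmic beta-actin, had 0.19 (SD 0.27, above 0 on 8 of 12, limma adjusted p = 0.290) and 0.13 by a further probe. *Myh11*, the smooth muscle myosin heavy chain and the most specific marker of the lineage that was measured, had a log2 ratio of -0.34 (limma adjusted p = 0.485). A fall beyond 1.3-fold is not excluded for it. *Smtn*, smoothelin, had 0.05 and 0.02, *Lmod1*, leiomodin, had -0.03 and *Des*, desmin, had -0.03. *Mylk* had the lowest and the highest probe of the list (-0.38 and 0.29), with its further probes at -0.04, -0.02 and -0.01. *Myh11*, *Smtn*, *Lmod1*, *Des*, *Mylk* and *Actg2*, enteric smooth muscle actin, with 0.17, were chosen for naming after their values were seen.

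Of the transcription factors that act on contractile genes, *Mef2c*, a factor of muscle and vessels, had a log2 ratio of -0.24 (SD 0.36, n = 12, below 0 on 11 of 12, limma adjusted p = 0.413) and -0.11 by a further probe. *Srf* itself had 0.15 and -0.06 by its probes, and *Myocd*, myocardin, had 0.04, both named after their values were seen. None of these probes passed. The genes named were taken from a longer list of regulators that is not reported here, *Mef2c* for its small adjusted p.

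Some genes of striated muscle were higher in the same RNA, and their part in the values of *Tpm1* and *Csrp1* was not tested. Of 15 genes of cardiac and skeletal muscle 11 had a probe, and 4 rose and 0 fell, *Tnnt2*, *Myl7*, *Myl4* and *Tnnc1*, where 0.166% of all probes were called as higher. The mean over the 12 probes of this list lay between 0.15 and 0.73 on the 12 arrays, and its median was 0.33, against 0.07 for the smooth muscle contractile genes. *Tnnt2*, cardiac troponin T, rose 2.83-fold (log2 ratio SD 0.48, n = 12, above 0 on 12 of 12, limma adjusted p = 9.93e-05). *Actc1*, cardiac actin, with a log2 ratio of 0.25, was not among them. *Actc1*, *Myl4* and *Tnnc1* were chosen for naming after their values were seen. *Tpm1* is itself expressed in the heart. The positions of its probes were not known here, so signals from cardiac and from smooth muscle *Tpm1* were not told apart. Ratios give no level, so which markers were near background is not known.

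For the other cells that the yolk sac holds, the counts are to be read against 11% of all probes with an unadjusted p under 0.05 and 0.907% past the threshold as lower. Pericyte genes had a median log2 ratio of -0.10 over 5 probes (from -0.37 for *Pdgfrb*, the receptor that recruits mural cells, to -0.02), and 0 of 5 genes passed in limma, with 2 at an unadjusted p under 0.05 and 0 of these over 1.3-fold. The endothelial list had a median of -0.08, and 0 of 9 genes passed. Such an unadjusted p was reached by 3 of 13 probes, 2 higher (both of *Cdh5*) and 1 lower (*Emcn*). Mesothelium and mesenchyme had a median of -0.16, and 3 of 10 genes fell, the matrix genes *Col3a1*, *Dcn* and *Col1a1*. By probe, 8 of 16 had an unadjusted limma p under 0.05, 7 lower and 1 higher. Means above 0 were found for 5 of 16. The mesothelial markers *Krt19*, *Msln* and *Wt1* had 0.34, -0.12 and -0.01, and none of them passed. *Col3a1* had means of -0.06 with del/del in Cy5 and -0.83 in Cy3 (limma adjusted p = 0.0197 for the dye term). *Dcn* (-0.74 and -0.40) and the *Col1a1* probe that passed (-0.48 and -0.39) were below 0 in both. A further *Col1a1* probe had -0.20 and did not pass (limma adjusted p = 0.655). Visceral endoderm had a median of 0.03, and 1 of 8 genes fell, *Alb*, albumin. The erythroid list, with a median of -1.15 and 6 of 7 genes lower, was the list farthest from 0 of the 9 compared. For the decidua only *Cryab* had a probe, with -0.17 and -0.19, and did not pass.

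**Figure D4:**
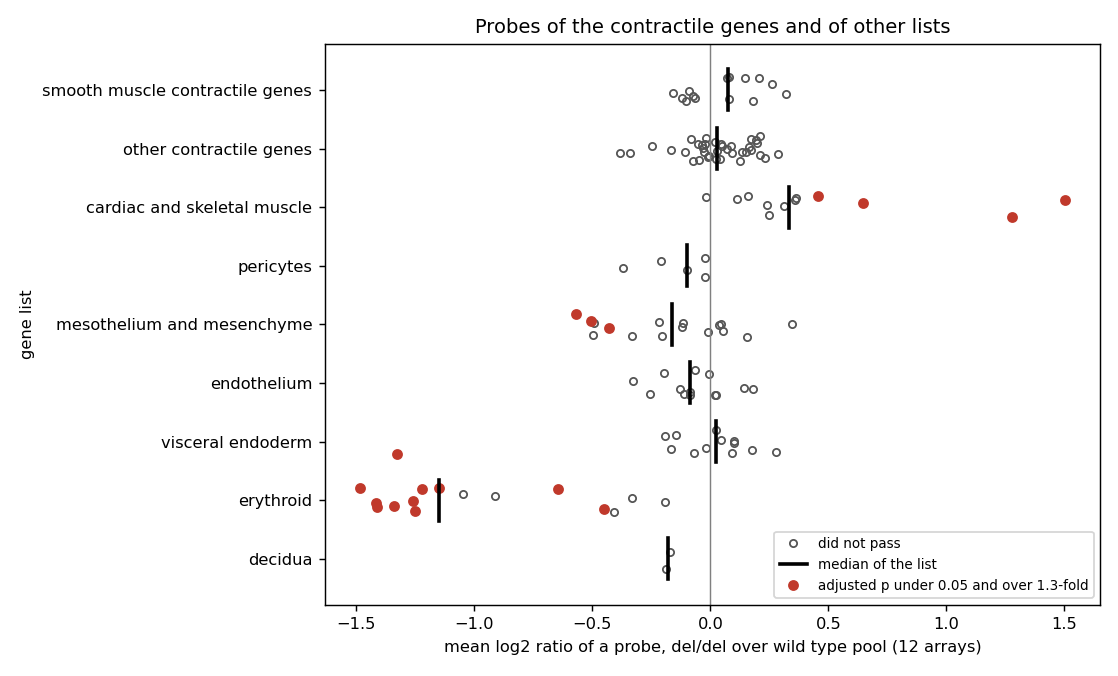
Mean log2 ratio over 12 arrays (x axis) of each probe of the smooth muscle contractile genes and of 8 other gene lists (y axis), with filled points past an adjusted p under 0.05 and 1.3-fold and a bar at each list's median. Both lists of contractile genes gather near 0 with no filled point, while 11 of 12 striated muscle probes lie above 0 (median 0.33, 4 filled) and all 15 erythroid probes below it (median -1.15, 10 filled).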

How the data were processed

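The values deposited by the authors are log2 ratios, 1 for each probe on each array. They had been normalized by a method not given in the sources used here, and neither scale nor direction is stated. The signs and sizes of the mean ratios that the study lists by gene fit a log2 ratio with del/del as the numerator, and no value was altered. An array held values for 20011 to 20501 probes. Without spot intensities, which were not used here, it is unknown which probes lay above background, and precision is limited by how many arrays there are. Of the probes, 12771 had 1 gene symbol and 8023 had none, by platform annotation whose gene IDs were brought up to the symbols of GRCm38.p6.

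In R 4.3.3, limma 3.58.1 (lmFit, then eBayes) fitted each probe measured on 8 or more arrays as a mean against 0 with a dye term (0 for replicates 8 and 9), and p-values were adjusted over all of these probes. The thresholds are those of the study's methods. The wild type pool is 1 control sample, so its own spread is left out. Every probe of the contractile genes is named. For the other lists, the rule was to name probes past the threshold (at most 4) or the 2 with the smallest adjusted p. For each cell type list it was at most 2. More genes than this were named for the other contractile genes, transcription factors, striated muscle, and mesothelium and mesenchyme. Some of these were chosen after their values were seen. The members and lists were chosen with earlier results of these data known. Alternatives were centring, scaling, the dye term, dyes of the 2 arrays, each orientation, other minimums, each array left out, eBayes options, fold thresholds, averaged probes, extreme values, presumed pairs and turned arrays. A list of regulators is not reported here.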

Additional observations from a re-analysis of the deposited data

Results flagged for a closer look

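The log2 ratio of *Tpm2* differed between the dye orientations, by the dye term of the fit, for 2 of its 3 probes. For probe 2646 the difference of del/del in Cy5 minus del/del in Cy3 was -0.895 (means -0.56 and 0.33, SD 0.29 and 0.29, n = 5 arrays each, adjusted p = 0.0473 from limma). For probe 9639 it was -0.887 (means -0.56 and 0.33, SD 0.26 and 0.44, n = 5 each, adjusted p = 0.0363 from limma). The dye term passed for 2 of the 14 contractile gene probes (14.3%), near the 12.2% of all probes. With arrays centred and scaled it passed for 0 of the 14.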

How the results depend on the processing

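The number of contractile gene probes past the threshold was 0 in every fit except with arrays turned by their dyes. There, *Tpm2* probes 2646 and 9639 passed (-0.50 and -0.45). With ratios read as del/del over wild type, turning makes the mean a measure of the dye difference, not of del/del against wild type. Without adjustment or fold, a rule added after the data were seen, the number was 4. The other contractile genes numbered 1 with arrays turned and 7 without adjustment or fold. Turned, *Tpm1* probe 2868 had -0.21 and *Csrp1* had -0.26 and -0.30. In Cy3 alone the signs reversed for *Tpm2* (0.33, 0.33 and 0.21), *Cald1* (0.21, -0.37 and 0.0036) and *Vcl* (-0.0036), and in Cy5 alone for *Csrp1* (-0.014 and -0.0924). Leaving out single arrays reversed 2 *Cald1* probes (7346, -0.0577 to 0.18, and 20483, -0.0152 to 0.14). Of 378 values of single probes 14 reversed. The number of probes with a dye term was 1 with arrays centred (11.2% of all probes), 0 with arrays centred and scaled (12.3%), 5 with del/del as Cy3 on replicate 8 and Cy5 on replicate 9 (24.1%), and 0 to 5 without single arrays (2.64% to 14.9%), among them 0 without replicates 1, 3, 5, 6, 7, 10, 11 or 12 and 5 without replicate 4. Over all probes, 220 passed, 113 in presumed pairs, 1773 turned, 1 in Cy5 alone, 44 in Cy3 alone, 0 with robust and trend options (each alone 220 and 212), 132 at 1.5-fold, 69 with treat, 554 unadjusted with the fold and 120 genes with probes averaged. The causes were not tested. No paired analysis was possible because the labels do not assign arrays to yolk sacs, and the pairs of consecutive arrays above are a presumption.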
